A study of Homo sapiens with 12 samples.

Results

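The 6 SW480 libraries, of 12 in the series, divided into the 2 libraries numbered replicate 1 (1 with each plasmid) and the 4 numbered replicates 2 and 3. The division was chosen from the expression values themselves: on the first principal component of the SW480 libraries, which held 71.8% of the variance, replicate 1 stood at 41.3 with empty vector and 42.8 with the HKDC1 plasmid, and the other 4 libraries stood between −28.5 and −12.7. All differences between these 2 sets of libraries are therefore descriptions and carry no test. SW480 is an established line from a primary colon adenocarcinoma. Cells were transfected for 24 h with 10 µg of plasmid in Lipofectamine 2000, either pCMV6-Entry (the empty vector) or pCMV6-HKDC1, which drives the hexokinase-family gene HKDC1 from the CMV promoter. RNA was selected by poly-A and read as counts per gene, with the aim of finding expression linked to proliferation. The series holds the same 2 plasmids with 3 replicates each in COLO320DM, a colorectal line with neuroendocrine features, and no untransfected cells of either line. The labels give the replicate numbers without a date, passage, density or culture, so what else differed between replicate 1 and the others is not known.

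Several stress and signalling programmes recur in the genes described below. NF-κB is a family of transcription factors (RELA, RELB, REL, NFKB1 and NFKB2) that inhibitor proteins such as NFKBIA hold in the cytoplasm; after a signal from TNF, interleukins or microbial products they enter the nucleus and switch on chemokines, adhesion molecules and their own inhibitors. ATF4 is the effector of the integrated stress response, which raises amino acid synthesis and transport when translation initiation is restrained. Chaperones of the cytosol answer to the heat shock factor HSF1, and those of the endoplasmic reticulum (ER) to the unfolded protein response.

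The sequences shown first are promoter stretches of selected genes that differed by at least 1.5-fold between replicate 1 and the others and hold the motif marked. Each is from RefSeq on GRCh38.p14, written 5′ to 3′ along the gene's own strand. The first 6 belong to NF-κB targets that were lower in replicate 1, and capitals mark the κB motif (GGG, any 2 bases, TTTCC) on either strand, or its shorter form GGAATTTCC in CXCL8.
CXCL1, chr4:73869293-73869362, plus strand: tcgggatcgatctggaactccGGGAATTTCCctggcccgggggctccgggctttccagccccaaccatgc
CXCL2, chr4:74099226-74099295, minus strand: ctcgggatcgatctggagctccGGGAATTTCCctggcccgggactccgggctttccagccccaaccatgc
CXCL3, chr4:74038720-74038789, minus strand: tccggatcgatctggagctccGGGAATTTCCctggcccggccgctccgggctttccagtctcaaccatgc
CXCL8, chr4:73740449-73740518, plus strand: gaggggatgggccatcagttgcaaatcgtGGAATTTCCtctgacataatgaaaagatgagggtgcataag
NFKBIA, chr14:35404780-35404849, minus strand: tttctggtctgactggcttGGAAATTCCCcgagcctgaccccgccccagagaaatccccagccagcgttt
TNFAIP3, chr6:137867159-137867228, plus strand: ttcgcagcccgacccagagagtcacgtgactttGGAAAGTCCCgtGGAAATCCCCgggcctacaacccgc
The next 3 belong to ER chaperone genes that were higher in replicate 1, and capitals mark the ER stress element (CCAAT, any 9 bases, CCACG) on either strand.
HSPA5, chr9:125241374-125241443, minus strand: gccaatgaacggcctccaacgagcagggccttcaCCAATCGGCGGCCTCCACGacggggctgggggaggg
CALR, chr19:12938369-12938438, plus strand: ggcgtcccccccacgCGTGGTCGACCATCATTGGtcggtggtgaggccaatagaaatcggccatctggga
HSP90B1, chr12:103930210-103930349, plus strand: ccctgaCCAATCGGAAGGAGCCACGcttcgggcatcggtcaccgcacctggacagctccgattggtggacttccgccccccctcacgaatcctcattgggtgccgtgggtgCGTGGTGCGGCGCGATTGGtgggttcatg
The last 3 belong to ATF4 targets that were lower in replicate 1, and capitals mark TGATGNAA, the C/EBP-ATF response element, on either strand.
ASNS, chr7:97872439-97872508, minus strand: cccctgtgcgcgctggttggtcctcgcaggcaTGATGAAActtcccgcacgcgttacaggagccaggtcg
CHAC1, chr15:40953231-40953300, plus strand: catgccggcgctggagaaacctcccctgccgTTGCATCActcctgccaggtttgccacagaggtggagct
FGF21, chr19:48755424-48755493, plus strand: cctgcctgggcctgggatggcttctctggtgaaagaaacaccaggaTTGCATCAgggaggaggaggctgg
Windows ran from 250 bases before to 50 bases after each start, and both strands were searched. Of the NF-κB and inflammatory gene list, 21 members had a promoter entry, and the κB motif was found in 11 of them and in 9 of the 16 whose gene was lower in replicate 1, against 1.92% of all 27305 promoters. The shorter form, which overlaps it in 6 genes, was found in 8 of the 21, and in 0.472% of all promoters. The ER stress element lay in 6 of 19 ER stress promoters (CALR, CANX, CRELD2, HSP90B1, HSPA5 and XBP1), 3 of them among the 5 genes that were higher in replicate 1, against 0.0806% of all promoters. TGATGNAA lay in 5 of 18 ATF4 list promoters, 4 of them among the 13 genes lower in replicate 1, against 3.67% of all. Other motifs were searched in the same way. The heat shock element GAANNTTC lay in 7 of 17 heat shock promoters (6.87% of all promoters), the E2F motifs TTTCCCGC and TTTGGCGC each in 8 of 25 DNA replication promoters (1.66% and 0.659%), and the cell cycle motif TTTGAA in 16 of 24 mitotic promoters (15.4%). Among the genes of these lists that were higher in replicate 1, the heat shock element lay in 3 of 8, each E2F motif in 2 of 8 and TTTGAA in 4 of 6. The hypoxia element ACGTG lay in 10 of 20 hypoxia promoters (21.6%), the AP-1 motif TGANTCA in 1 of 15 immediate early promoters (7.76%), and the sterol element TCACNCCAC in 1 of 18 cholesterol promoters (1.15%). For genes lower in replicate 1, ACGTG lay in 2 of 3 and the AP-1 motif in 0 of 6. For genes higher in replicate 1, ACGTG lay in 1 of 2 and the sterol element in 0 of 1. These matches describe letters in a window and measure no binding.

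Genes were read as shifted when both replicate 1 libraries lay above, or both below, all 4 other libraries and the fitted log2 difference was at least 1.5-fold in size. Of 22089 genes kept in SW480, 1364 (6.18%) were shifted higher in replicate 1 and 3012 (13.6%) shifted lower, together 19.8%. The counts of shifted list members given for SW480 below stand beside these shares of all genes. Counts near the shares are not read as results about a list. Without the size limit, 28.7% of genes were higher in both replicate 1 libraries than in all others and 30% lower, together 58.7%. Without replicate 1 with the HKDC1 plasmid, 2131 genes were shifted higher. Levels are given in CPM, counts scaled to a common library size and then by TMM, a trimmed mean over genes. Scaling by library totals instead, which moved the median log2 difference of all genes by −0.14, gave 814 higher and 4079 lower, so that genes higher made up 16.6% of the shifted in place of 31.2%. Among the 11259 protein-coding genes with a mean of at least 5 CPM, 518 were shifted higher and 689 lower, and 80 and 234 of them by at least 2-fold. In the same set, 1210 genes differed by at least 1.5-fold between replicate 1 and the others and 2 genes between replicates 3 and 2.

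The 6 libraries held 35116239 to 45451279 counts. Mitochondrial genes took 7.40% and 7.17% of counts in replicate 1 and 6.32% to 6.48% in the others. The 50 most abundant genes took 16.3% and 17.0% against 14.2% to 15.7%. HKDC1 had 35.3, 35.5 and 34.1 CPM with empty vector and 12254, 12151 and 14231 CPM with its plasmid (replicates 1, 2 and 3, over library totals), so the plasmid labels held in replicate 1 as in the others. Of 8 epithelial markers, KRT8, KRT18, VIL1 and EPCAM, a surface marker of epithelium, were abundant in every library. EPCAM had 555 and 560.4 CPM in replicate 1 and 461 to 504 in the others. CDX2 and CDH1 were less abundant, at levels given below. KRT20 was scarce, at 40 and 50 counts in replicate 1 and 45 to 75 in the others, and CEACAM5 had 0 to 3 counts. Markers of other cells were scarce, and their summed CPM are over library totals, without TMM. The 6 leukocyte markers summed to 5.75 to 6.20 CPM in replicate 1 and 7.63 to 12.9 in the others, mostly from CD68, and the defining markers PTPRC and CD3E had 0 to 3 counts in each library. The 7 fibroblast markers summed to 17.7 to 20 and 18 to 20.3 CPM, most of it LUM (482 to 739 counts over the 6 libraries). COL1A1 had 81 and 78 counts in replicate 1 and 123 to 159 in the others, 2 of the 3 fibroblast markers that passed the count filter were shifted lower, and COL3A1 and COL1A2 had 0 to 3 counts. The 4 endothelial markers summed to 0.334 to 0.359 and 0.389 to 1.20 CPM, mostly from VWF, which had 10 and 13 counts in replicate 1 and 14 to 41 in the others, and KDR, CDH5 and PECAM1 had 0 to 2 counts. The 7 neuroendocrine markers summed to 3.48 to 3.49 CPM in replicate 1 and 6.90 to 8.86 in the others. The part of mitochondrial content, abundant genes or these markers in the differences below was not tested.

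Among the protein-coding genes with a mean of at least 5 CPM, those with the largest differences included genes nearly silent in replicate 1. CHL1 (chromosome 3, 196763–409417, plus strand), a neural cell adhesion molecule related to L1, had 0.529 and 0.387 CPM in the replicate 1 libraries (empty vector, then HKDC1 plasmid). It had 16.8, 15.2, 16.5 and 13.2 CPM in replicates 2 and 3, a log2 difference of −5.06 (SE 0.18) or 33.3-fold. Here and below, levels of replicates 2 and 3 are in the order empty vector 2, empty vector 3, HKDC1 plasmid 2 and HKDC1 plasmid 3, and a value with its standard error (SE) in parentheses is the log2 difference, replicate 1 minus replicates 2 and 3. No library of replicates 2 and 3 came near the replicate 1 libraries, and the 4 others were close to each other with either plasmid. In bulk RNA, fewer cells expressing a gene and less RNA per cell cannot be told apart.

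**Figure D1:**
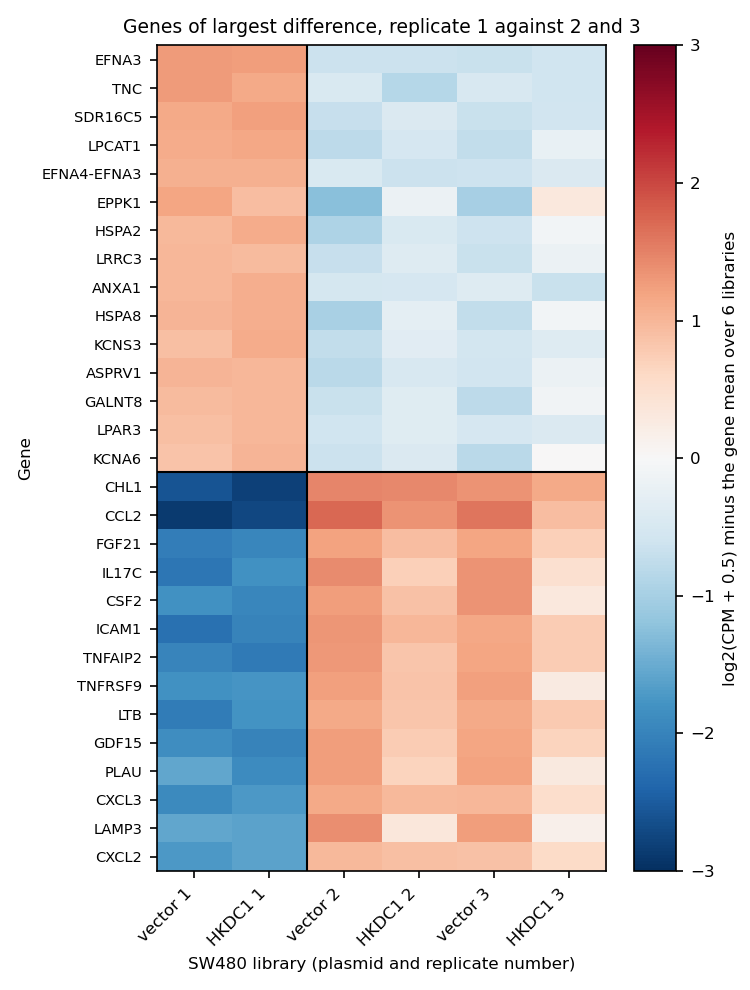
Heat map of the protein-coding genes with the largest differences, 15 higher and 14 lower (rows), in the 6 SW480 libraries (columns); colour is log2(CPM + 0.5) minus the gene's mean over the 6 libraries, red above and blue below. The 2 replicate 1 columns are alike, and in several lower genes (PLAU, LAMP3, TNFRSF9) the HKDC1 columns of replicates 2 and 3 are paler than the empty-vector ones.

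Inflammatory genes formed the list with the median farthest from 0. Of 24 genes listed as NF-κB and inflammatory genes, 21 were measured, and 19 of them were shifted lower in replicate 1 and none higher, with a median log2 difference of −1.86 against −0.02 over all genes. Since these values chose the libraries, nothing is read from the counts against the 13.6% of all genes that were shifted lower. IL1A, IL1B and IL6 were below the count filter. REL and NFKB2, both subunits of the factor, were the members not shifted. REL had 47.3 and 44.8 CPM against 45.04 to 51.9, with overlapping libraries, and NFKB2 61.2 and 55.4 against 73.6 to 103, without overlap but under 1.5-fold. CCL2, IL17C and TNFRSF9, described with these genes, are not on the list and were named for the size of their difference.

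Chemokines, which attract leukocytes, were among the genes that differed most. CCL2 (chromosome 17, 34255218–34257203, plus strand), the monocyte attractant, had 1.66 and 1.85 CPM in replicate 1. In replicates 2 and 3 it had 51.7 and 47.3 CPM with empty vector, compared with 39.3 and 29.2 for the HKDC1 plasmid, 23.8-fold more, at a log2 difference of −4.57 (SE 0.18). CXCL8 (interleukin 8), a neutrophil attractant, had 38.2 and 40.6 CPM in replicate 1 and 199.8, 198, 172 and 127 in the other libraries, a log2 difference of −2.13 (SE 0.18). The neighbouring genes CXCL1, CXCL2 and CXCL3, whose promoter stretches with the same 10 capital letters are printed above, were lower together. CXCL3 had 9.35 and 10.8 against 80.6, 73.5, 71.9 and 52.5 CPM (−2.78, SE 0.18). CXCL2 had 3.30 and 3.62 against 24.1, 22.5, 23.1 and 18.2 CPM (−2.67, SE 0.12). CXCL1 had 25.04 and 24.2 against 97.5, 95.5, 95.4 and 77.8 CPM (−1.89, SE 0.08). These 3 genes are close copies, and how reads matching more than 1 of them were counted is not given. CCL20, which attracts dendritic cells and lymphocytes, had 26.5 and 31.2 against 90.8, 89.3, 97.4 and 74.5 CPM. For all of these chemokines the lowest library of replicates 2 and 3 was above both replicate 1 libraries.

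Cytokines and their receptors were lower as well. CSF2 (GM-CSF), a growth factor of myeloid cells, had 1.46 and 1.27 CPM in replicate 1 and 15.9, 16.9, 12.1 and 8.04 CPM in the others (−3.27, SE 0.19). IL17C, an interleukin that epithelial cells themselves secrete, had 1.69 and 2.30 against 25.7, 24.3, 15.6 and 13.2 CPM (−3.28, SE 0.22). LTB, a membrane-anchoring lymphotoxin of the TNF family, had 5.47 and 6.86 against 55.7, 55.2, 44.6 and 43.3 CPM (−3.01, SE 0.12). All 3 were several times lower in replicate 1 with either plasmid. TNF itself was scarce, at 0.554 and 0.636 CPM and 2.70 to 4.45 CPM. TNFRSF9 (4-1BB), a costimulatory receptor, had 1.64 and 1.69 against 17.1, 17.2, 13.2 and 8.54 CPM (−3.07, SE 0.21). Within replicates 2 and 3, replicate 3 with the HKDC1 plasmid was the lowest library for CSF2, IL17C, LTB, TNF and TNFRSF9.

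Among target genes on the cell surface and inside the cell, ICAM1 (chromosome 19, 10271093–10286615, plus strand), to which leukocyte integrins bind, had 5.95 and 7.14 CPM in replicate 1 and 75.02, 67.4, 59.9 and 51.3 CPM in the others (−3.27, SE 0.13). TNFAIP2, a TNF-induced protein of membrane protrusions, was the most abundant of these genes, at 52.4 and 47.3 CPM against 516, 470.1, 373 and 354 CPM (−3.09, SE 0.08). The inhibitors that close the NF-κB loop were lower too. NFKBIA, which binds the factor in the cytoplasm, had 25.8 and 25.6 against 84.3, 84.4, 79.6 and 77.2 CPM (−1.66, SE 0.07). TNFAIP3 (A20), a ubiquitin-editing inhibitor, had 11.2 and 10.6 against 35.4, 30.9, 31.9 and 30.3 CPM (−1.56, SE 0.09). BIRC3 (cIAP2), an apoptosis inhibitor of the TNF receptor complex, had 41.9 and 45.1 against 189, 176, 153 and 121 CPM. The subunit genes RELB (−1.26, SE 0.09) and NFKB1 (−0.81, SE 0.08) differed less than the chemokines.

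**Figure D2:**
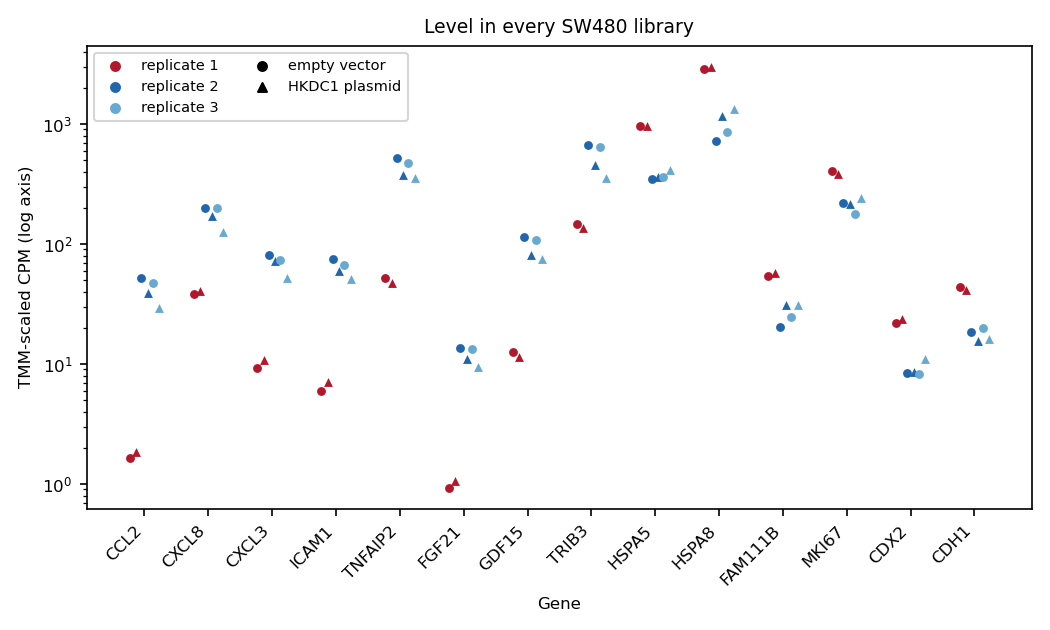
Level of 14 genes in every SW480 library, as TMM-scaled CPM on a log axis; colour gives the replicate number and shape the plasmid. For CCL2 and FGF21 the replicate 1 points lie far under the other 4, and for HSPA5, HSPA8, CDX2 and CDH1 they lie above all 4.

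Genes of the integrated stress response were lower in replicate 1 except for 1 member. Of 22 measured, 14 were shifted lower and 1 higher, and the median log2 difference was −0.88. FGF21 (chromosome 19, 48755524–48758333, plus strand), a stress hormone induced by ATF4, had 0.932 and 1.05 CPM in replicate 1 and 13.5, 13.4, 11.1 and 9.52 CPM in the others, a log2 difference of −3.58 (SE 0.16). TRIB3, a pseudokinase that feeds back on ATF4, had 147 and 136 CPM against 667 and 641 with empty vector, compared with 453 and 355 for the HKDC1 plasmid (−1.85, SE 0.19). ASNS, which makes asparagine, had 384 and 374 against 1139, 1112, 1012 and 839 CPM (−1.43, SE 0.08). CHAC1, which degrades glutathione, had 15.7 and 12.8 against 42.6, 45.2, 43.7 and 46.5 CPM (−1.64, SE 0.09). These 4 genes had no overlap between the sets of libraries, and in CHAC1 the plasmid groups of replicates 2 and 3 overlapped. SESN2, a stress-induced inhibitor of mTORC1, differed by −1.46 (SE 0.08), and PHGDH, the entry enzyme of serine synthesis, by −1.04 (SE 0.06). DDIT3 (CHOP), a pro-apoptotic factor, had 40.7 and 40.2 against 106, 93.1, 81.9 and 71.4 CPM. The mRNA of ATF4 itself had 476 and 464 against 547, 571, 532 and 535 CPM, a log2 difference of −0.22 (SE 0.06) that did not reach 1.5-fold. ALDH1L2, a mitochondrial folate enzyme, was the member shifted higher (0.61, SE 0.09).

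GDF15 (chromosome 19, 18374731–18389176, plus strand), a circulating stress cytokine, had 12.6 and 11.4 CPM in replicate 1 and 114, 109, 80.6 and 75.6 CPM in the others (−2.96, SE 0.09). CDKN1A (p21), an inhibitor of cyclin-dependent kinases, had 18.7 and 18.3 against 63.04, 62.03, 59.5 and 50.3 CPM (−1.66, SE 0.08). CDKN2A (p16/ARF) was lower too (−0.84, SE 0.07), and CCND2, a G1 cyclin, was higher, at 259 and 229 against 149, 144, 151 and 164 CPM (0.68, SE 0.06).

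Chaperone genes stood on the other side. Of 16 measured genes of cytosolic heat shock proteins, 8 were shifted higher in replicate 1 and none lower, with a median log2 difference of 0.81. HSPA8 (chromosome 11, 123057489–123063230, minus strand), the constitutive cytosolic HSP70, had 2864 and 3009 CPM in replicate 1. In replicates 2 and 3 it had 717 and 852 CPM with empty vector, compared with 1161 and 1331 for the HKDC1 plasmid, a log2 difference of 1.58 (SE 0.17). HSP90AA1, the inducible HSP90, had 4783 and 5099 against 1882, 2109, 2679 and 2736 CPM (1.09, SE 0.07). DNAJA1, an HSP40 that hands substrates to HSP70, had 311 and 325 against 123, 137, 173 and 180.3 CPM (1.07, SE 0.07). In all 3 genes the libraries ran in 3 tiers, with replicate 1 highest, the HKDC1 libraries of replicates 2 and 3 between, and their empty-vector libraries lowest. The stress-inducible pair HSPA1A and HSPA1B, nearly identical genes whose reads may have been split between them, had a wider spread. HSPA1A had 244 and 312 CPM in replicate 1, 54.3 and 59.6 with empty vector, compared with 167 and 249.5 for the HKDC1 plasmid in replicates 2 and 3, so its 2 sets of libraries overlapped. HSPA2, a testis-enriched HSP70, was among the 15 genes with the largest difference at 21.2 and 23.2 against 5.32, 6.61, 7.49 and 9.82 CPM (1.62, SE 0.11).

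Several chaperones of the ER were higher in replicate 1. Of 19 ER stress genes, 5 were shifted higher and none lower, and the median was 0.45. HSPA5 (BiP, chromosome 9, 125234853–125241343, minus strand), the main HSP70 of the ER, had 963 and 953 CPM in replicate 1 and 349, 363, 365 and 413 CPM in the others (1.37, SE 0.06). CALR (calreticulin), a lectin chaperone, had 578 and 567 against 261, 286, 309 and 363 CPM (0.92, SE 0.08). HSP90B1 (GRP94), the HSP90 of the ER, had 1306 and 1341 against 657, 709.9, 759 and 769 CPM (0.87, SE 0.06). SDF2L1 (0.78, SE 0.10) and PDIA4 (0.64, SE 0.07), both helpers of folding in the ER, were the other shifted members. XBP1, a transcription factor of the unfolded protein response, was at 149.5 and 146 against 155 to 178 CPM and HERPUD1, of ER-associated degradation, at 96.4 and 94.1 against 77.7 to 89.9 CPM, and neither reached 1.5-fold. In the same libraries DDIT3, which the unfolded protein response shares with ATF4, was lower.

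**Figure D3:**
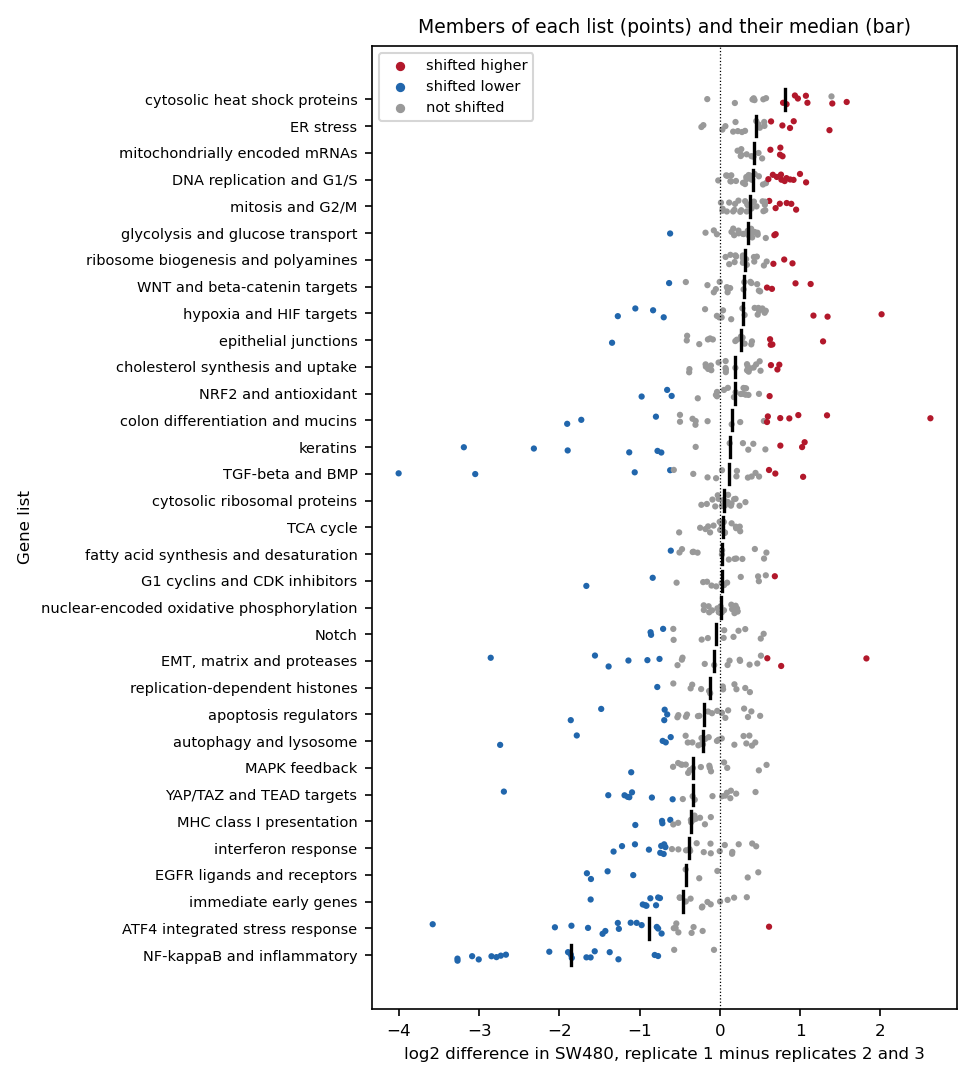
Log2 difference in SW480 (replicate 1 minus replicates 2 and 3) of every measured member (points) of 33 gene lists, with the list's median as a black bar; red points were shifted higher, blue shifted lower and grey not shifted. The NF-κB list lies wholly left of 0 with its median at −1.86, the ATF4 list at −0.88, and the heat shock list at 0.81.

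Genes of cell division were higher in replicate 1 by modest amounts. Among 30 genes of DNA replication and the G1/S transition, 11 were shifted higher (6.18% of all genes were) and none lower, 25 had non-overlapping libraries on the higher side (28.7% of all genes did) and the median was 0.42. FAM111B, a replication-linked protease, had 53.7 and 57.5 CPM against 20.4, 24.6, 30.8 and 31.1 CPM (1.07, SE 0.08). CLSPN (claspin), a fork checkpoint mediator, had 46.5 and 50.8 against 21.8, 21.1, 26.4 and 28.8 CPM (1.00, SE 0.07). PCNA, the sliding clamp of DNA polymerases, had 335 and 363 against 175, 195, 224 and 235 CPM (0.76, SE 0.06). Replicate 1 was highest in each of these, and the empty-vector libraries of replicates 2 and 3 were lowest. Among 30 genes of mitosis and G2/M, 6 were shifted higher and none lower, with a median of 0.37. MKI67 (Ki-67), a marker of cycling cells, had 403 and 384 against 221, 177, 213 and 242 CPM (0.89, SE 0.09), KIF20A, a kinesin of cytokinesis, differed by 0.95 (SE 0.08), and CCNB1 (cyclin B1) by 0.75 (SE 0.07). Genes of ribosome biogenesis had a median of 0.31 with 3 of 20 shifted higher, led by NOP56, a box C/D snoRNP protein (0.90, SE 0.06), and NCL (nucleolin, 0.80, SE 0.06). MYC, which drives many of these genes, had 880.2 and 839.7 against 911, 887, 730.2 and 713 CPM, overlapping between the sets (0.10, SE 0.06).

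Mitochondrially encoded mRNAs were higher in replicate 1 in all 13 genes, with no overlap of libraries, a median of 0.42, and 4 of them past 1.5-fold. MT-ND5, a subunit of complex I, had 3488 and 3368 CPM against 1917, 1989.8, 1946 and 2132 CPM (0.78, SE 0.06). MT-ATP6, a subunit of ATP synthase, had 7842 and 7733 against 4576, 4810.5, 5256 and 5569.8 CPM (0.63, SE 0.06). These genes are part of the mitochondrial share of counts given above. Nuclear-encoded subunits of oxidative phosphorylation had a median of 0.02, TCA cycle genes 0.03, cytosolic ribosomal proteins 0.06, and none of the 20 measured genes in each was shifted; scaled by library totals these medians lay below 0, at −0.12, −0.11 and −0.08. Among glycolysis genes LDHA, which reduces pyruvate to lactate, had 1514 and 1565 against 837, 935, 1028 and 1015 CPM (0.69, SE 0.06). The list had 2 of 23 members shifted higher and 1 lower, with a median of 0.35. Without the size limit, 19 were higher and 1 lower with no overlap of libraries, against 28.7% and 30% of all genes. For cholesterol synthesis 3 of 25 were shifted higher and none lower. Without the size limit, 13 were higher and 4 lower with no overlap. The list median was 0.39 with empty vector and 0.08 with the HKDC1 plasmid. HMGCS1, which makes the precursor HMG-CoA, had 107 and 108 against 56.98, 63.03, 76.4 and 83.6 CPM (0.64, SE 0.08).

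Several growth factor genes were lower. AREG, EREG and HBEGF, ligands of the EGF receptor, were among 4 of 9 measured EGFR ligands and receptors that were shifted lower, with none higher and a median of −0.43. AREG (amphiregulin) had 30.4 and 30.2 CPM in replicate 1, 123 and 120.2 with empty vector, compared with 88.9 and 61.7 for the HKDC1 plasmid (−1.66, SE 0.27). EREG (epiregulin) had 58.2 and 55.3 against 193, 185, 136 and 103 CPM (−1.40, SE 0.20). HBEGF had 17.8 and 15.5 against 70.6, 64.2, 45.1 and 29.4 CPM (−1.61, SE 0.29). All 3 ligands were higher with empty vector than with the HKDC1 plasmid within replicates 2 and 3, and at like levels with both plasmids in replicate 1. Among 20 immediate early genes, which growth factors induce within minutes, 8 were shifted lower and none higher (median −0.46). EGR1 had 182 and 153 against 610.1, 552, 482 and 414 CPM (−1.61, SE 0.07). FOS had 17.1 and 14.5 against 32.7, 32.1, 31.4 and 26.6 CPM (−0.96, SE 0.09). Of 17 genes of MAPK feedback, 1 was shifted, EPHA2, an ephrin receptor (−1.11, SE 0.07), with a median of −0.34.

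Interferon-response genes had a median of −0.38, with 9 of 25 shifted lower and none higher. MX1, an antiviral GTPase, had 2.57 and 2.96 against 6.70, 5.80, 5.52 and 5.04 CPM (−1.06, SE 0.15). RIGI, a sensor of foreign RNA, had 4.08 and 5.12 against 9.70, 8.49, 7.87 and 7.90 CPM (−0.88, SE 0.13). Genes of MHC class I presentation, 14 in number, all had negative differences (median −0.36), with 4 shifted. PSMB9, a subunit of the immunoproteasome, had 4.38 and 4.45 against 11.2, 9.45, 8.46 and 7.79 CPM (−1.05, SE 0.13). TAP1, the peptide transporter, had 20.3 and 20.1 against 31.6, 33.1, 29.6 and 29.6 CPM (−0.62, SE 0.08). The motif of interferon-stimulated promoters (GAAA, any 2 bases, GAAA) was found in 14 of 21 promoters of the interferon list and in 5 of the 6 shifted lower, against 3.65% of all promoters.

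Epithelial and matrix genes divided. CDX2, the homeobox factor of intestinal identity, had 21.9 and 23.8 CPM in replicate 1 and 8.42, 8.30, 8.61 and 11.1 in the others (1.33, SE 0.10). CDH1 (E-cadherin), the adhesion molecule of epithelial junctions, had 43.8 and 41.6 against 18.3, 19.9, 15.7 and 16.3 CPM (1.29, SE 0.08). HNF4A, a transcription factor of gut epithelium, had 120.4 and 123 against 65.3, 62.9, 67.4 and 71.8 CPM (0.87, SE 0.06). The simple keratin KRT19 had 656 and 609 against 286, 306, 285 and 340.4 CPM (1.06, SE 0.07). In these 4 genes replicate 1 exceeded every other library. Other keratins were lower, and KRT7, a keratin that colon epithelium usually lacks, had 4.59 and 4.29 against 22.01 and 23.1 CPM with empty vector, compared with 11.7 and 11.4 for the HKDC1 plasmid (−1.90, SE 0.15). KRT81 (−3.19) and KRT86 (−2.32) are near copies that cannot be separated here. The 15 keratins measured had 3 members shifted higher and 6 lower, and their median of 0.12 turned to −0.02 when scaled by library totals. Of 19 colon differentiation and mucin genes, 7 were shifted higher and 3 lower, and of 19 junction genes 4 higher and 1 lower, the last being CLDN3, a tight junction protein (−1.34, SE 0.17). LGR5, a stem cell receptor and WNT target, had 15.5 and 16.01 against 6.49, 6.29, 6.92 and 9.38 CPM (1.13, SE 0.11), and 4 of 21 WNT targets were shifted higher and 1 lower.

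Matrix and protease genes included members at both extremes. TNC (tenascin-C, chromosome 9, 115019575–115118257, minus strand), a matrix glycoprotein, had 64.8 and 58.7 CPM in replicate 1 and 19.1, 18.8, 14.4 and 17.5 in the others (1.83, SE 0.08). PLAU (urokinase), which activates plasminogen, had 2.62 and 2.02 against 21.5 and 21 CPM with empty vector, compared with 14.3 and 10.9 for the HKDC1 plasmid (−2.86, SE 0.14). Over 21 genes of epithelial-mesenchymal transition, matrix and proteases, 3 were shifted higher and 6 lower. The TGF-β and BMP list had 3 of 18 shifted higher and 4 lower, with a median of 0.12 that became −0.02 under library totals. BMP4, a secreted ligand, had 239.6 and 236 against 105, 109, 117 and 134 CPM (1.04, SE 0.07). GREM1, a secreted BMP antagonist, had 0.176 and 0.138 CPM in replicate 1 and 3.23, 2.86, 3.80 and 0.251 CPM in the others, so replicate 3 with the HKDC1 plasmid lay near replicate 1, unlike the other 3 libraries. YAP/TAZ targets had 8 of 19 shifted lower and none higher (median −0.34), including AXL, a receptor kinase (−1.39, SE 0.16), and the growth arrest gene GADD45A (−1.15, SE 0.08).

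Hypoxia genes were shifted in both directions, with 3 of 22 higher and 4 lower. Without the size limit, 13 were higher and 4 lower with no overlap of libraries, against 28.7% and 30% of all genes, and the median was 0.29. CA9, a carbonic anhydrase of hypoxic cells, had 4.96 and 4.54 against 1.09, 1.34, 0.880 and 1.39 CPM (2.01, SE 0.18). NDRG1 had 16.7 and 14.5 against 8.26, 6.93, 5.11 and 4.68 CPM (1.34, SE 0.11). VEGFA, the angiogenic growth factor, was lower, at 41.8 and 37.8 against 90.1, 85.1, 77.8 and 77.6 CPM (−1.05, SE 0.07), as was DDIT4 (REDD1), an mTORC1 inhibitor that ATF4 also induces (−1.27, SE 0.06). Among autophagy and lysosome genes 5 of 23 were shifted lower and none higher, and the largest difference was that of LAMP3, an inducible lysosomal membrane protein, at 1.76 and 1.69 against 17.1 and 15.5 CPM with empty vector, compared with 7.99 and 6.87 for the HKDC1 plasmid (−2.74, SE 0.18). Apoptosis regulators had 5 of 22 shifted lower and none higher, with BBC3 (PUMA) at −0.66 (SE 0.08). The remaining lists are small, and over all genes 6.18% were shifted higher and 13.6% lower. NRF2 and antioxidant genes had 1 of 20 shifted higher and 3 lower, and metallothioneins 1 of 6 higher and 2 lower. Notch genes had 3 of 14 lower, and G1 cyclins and CDK inhibitors 1 of 15 higher and 2 lower. Replication-dependent histones had 1 of 13 lower, fatty acid synthesis 1 of 15 lower, and glucose-sensing MondoA targets none of 8. Nothing is read from these counts.

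The genes with the largest differences on the higher side came from various families. EFNA3 (ephrin-A3, chromosome 1, 155078837–155087538, plus strand), a ligand of Eph receptors, had 22.4 and 21.7 CPM in replicate 1 and 5.51, 5.38, 5.54 and 5.73 CPM in the others (1.99, SE 0.09, 3.98-fold). The readthrough gene EFNA4-EFNA3 overlaps it and was similar (1.70, SE 0.11), and the 2 are not separable. LPCAT1, which remodels phosphatidylcholine, had 92.4 and 95.3 against 24.3, 25.4, 29.7 and 36.2 CPM (1.72, SE 0.08). ANXA1 (annexin A1), a phospholipid-binding protein with anti-inflammatory activity, had 99.3 and 106 against 34.2, 37.6, 34.5 and 30.98 CPM (1.58, SE 0.07). SDR16C5, a retinol dehydrogenase, had 54.9 and 58.5 against 14.99, 15.3, 18.2 and 16.5 CPM (1.80, SE 0.07). Both replicate 1 libraries were well above all others in each of these. The voltage-gated potassium channel genes KCNS3 (1.57) and KCNA6, the glycosyltransferase GALNT8 (1.52), within whose span KCNA6 lies so that their reads cannot be separated, the lysophosphatidic acid receptor LPAR3 (1.51), the protease ASPRV1 (1.53) and LRRC3 (1.59) complete the 15 with HSPA8, HSPA2, TNC and EPPK1. EPPK1 (epiplakin), a binder of keratin filaments, had 18.97 and 15.8 CPM in replicate 1, 3.07 and 3.76 with empty vector, compared with 6.99 and 10.02 for the HKDC1 plasmid in replicates 2 and 3. Its log2 difference of 1.67 (SE 0.46) was 0.90 without replicate 1 with empty vector and 2.46 without replicate 1 with the HKDC1 plasmid.

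The plasmid groups did not hold the same place within replicates 2 and 3. Among all genes, both HKDC1 libraries of these replicates lay above both empty-vector libraries in 20.8% and below both in 20.4%. Of the 1364 genes shifted higher in replicate 1 the HKDC1 libraries lay above in 593 (43.5%) and below in 112 (8.21%), and of the 3012 shifted lower they lay below in 1117 (37.1%) and above in 331 (11%). For the NF-κB list the median log2 difference between plasmids (HKDC1 minus empty vector of the same number) was 0.02 in replicate 1, −0.22 in replicate 2 and −0.38 in replicate 3. For cytosolic heat shock proteins it was 0.08, 0.42 and 0.38. Seen by plasmid, the NF-κB median difference between replicate 1 and the others was −1.92 with empty vector and −1.60 with the HKDC1 plasmid, and the heat shock median 0.96 and 0.62. These shares and medians come from the same libraries that defined the shifted genes.

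The difference between the plasmid effect in replicate 1 and that in the others was examined by the interaction of plasmid and replicate 1, which did not choose the libraries. In replicate 1 that effect is 1 library minus 1 library, with no spread of its own: the test assumes that these libraries vary like replicates 2 and 3, which leave 2 residual degrees of freedom. In edgeR's quasi-likelihood test 3 of 22089 genes (0.0136%) passed an adjusted p of 0.05, 2 higher (0.00905%) and 1 lower (0.00453%), and 971 (4.4%) had an unadjusted p under 0.05. DESeq2 called none, and leaving out 1 library of replicates 2 and 3 gave 0 to 233 genes higher and 5 to 173 lower. No label says whether the replicates were grown apart, so p-values here and below reflect only how far these samples spread. AKAP12, a scaffold of protein kinase A, had 31.9 and 30.5 CPM in replicate 1 (empty vector, HKDC1), 51.2 and 44.4 with empty vector, compared with 27.2 and 22.6 for HKDC1 in replicates 2 and 3. Its plasmid effect in replicate 1 exceeded that in the others by 0.87 (SE 0.17, adjusted p = 0.0393). TNFRSF12A (the TWEAK receptor, a member of the TNF receptor family) had 73.9 and 68.3 CPM in replicate 1, 219 and 205 with empty vector, compared with 127 and 106 for HKDC1 in the others, a difference of 0.75 (SE 0.15, adjusted p = 0.0393). For EPPK1, whose levels are given above, it was −1.57 (SE 0.24, adjusted p = 0.0016). In AKAP12 and TNFRSF12A the HKDC1 libraries of replicates 2 and 3 were lower than their empty-vector partners and in EPPK1 they were higher, while in replicate 1 the partners lay close.

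The interaction calls changed with the tool and with the libraries fitted. DESeq2 called none, with 260 genes at an unadjusted p under 0.05. Without replicate 2 with the HKDC1 plasmid 233 genes were called higher and 173 lower. Without replicate 3 with the HKDC1 plasmid 15 were called higher and 9 lower, and without replicate 3 with empty vector 6 and 7. Without replicate 2 with empty vector 0 were called higher and 5 lower, and AKAP12 and TNFRSF12A were not called (adjusted p = 0.733 and 0.509 in edgeR). With the replicate number as a block, a fit with 1 residual degree of freedom, 13 genes were called, among them HSPA1A at −1.49 (adjusted p = 2.13e-16), HSPA1B at −1.44 and HSPA8 at −0.60 in edgeR. Without the block HSPA1B had −1.465 (SE 0.35), and neither it nor HSPA1A was called. HSPA8 had −0.60 there (SE 0.14, adjusted p = 0.239 in edgeR) and was not called. Next by p was the pseudogene AC243562.1, with −2.38 (SE 0.46, adjusted p = 0.0554) in edgeR, which was not called. IL17C (1.23), SDC4, a syndecan (0.61), GPRC5A, an orphan receptor (0.73), CALCB, a calcitonin-family peptide (1.20), and INSIG1, a brake on cholesterol synthesis (−0.63), did not pass, at edgeR adjusted p of 0.239 to 0.297.

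**Figure D4:**
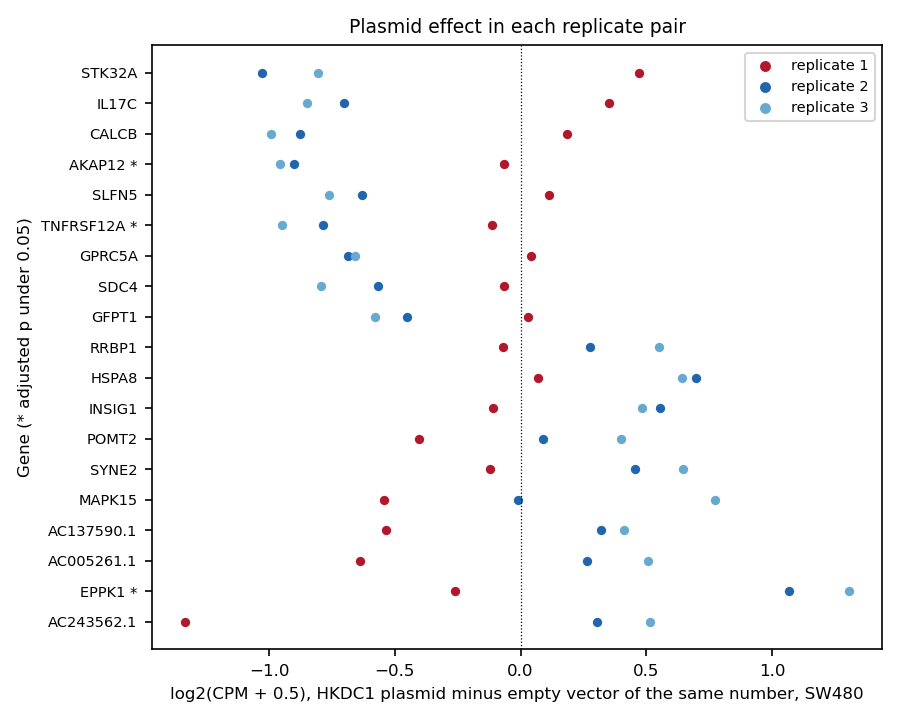
Difference in log2(CPM + 0.5) between the HKDC1 plasmid and the empty vector of the same replicate number in SW480, for genes of smallest interaction p in each direction; colour gives the replicate number and an asterisk an adjusted p under 0.05. Replicate 1 lies near 0 for AKAP12 (−0.06) and TNFRSF12A (−0.11) where replicates 2 and 3 lie between −0.79 and −0.96, and at −0.26 for EPPK1 where they lie at 1.07 and 1.31.

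Replicates 2 and 3, the libraries against which replicate 1 was set, were compared with each other. Between replicates 3 and 2, edgeR called 3 of 22089 genes (0.0136%), 2 higher (0.00905%) and 1 lower (0.00453%), and 772 (3.49%) had an unadjusted p under 0.05. KRT6C, a stress keratin of stratified epithelium, rose from 16.6 and 16.1 CPM in replicate 2 to 25.3 and 32.1 in replicate 3 (empty vector and HKDC1), by 0.80 (SE 0.10, adjusted p = 6.86e-06). It is a close copy of KRT6A and KRT6B, whose reads may have been shared. SOD1-DT, a transcript divergent from SOD1, rose from 0.159 and 0.0713 to 2.01 and 4.17 CPM, by 4.70 (SE 0.42, adjusted p = 2.88e-09). The third call was under 1 CPM. KMT2C, a histone methyltransferase, had −0.44 (SE 0.09, adjusted p = 0.0529) and did not pass. Without replicate 3 with empty vector 153 genes were called higher and 37 lower, and without replicate 3 with HKDC1 4 and 37. Without either replicate 1 library 5 were called higher and 6 or 7 lower, and without either replicate 2 library 2 or 3 were called lower. For the NF-κB list the median difference of replicate 3 from 2 was −0.16, and for the ATF4 list −0.08.

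The same numbering in COLO320DM was not used by the division of SW480, and the difference there was fitted with p-values. It was known beforehand that replicate 1 stood apart there too. The number of genes called in that line therefore does not test whether it does, and the adjusted p-values of single genes carry the same limit. The median size of the log2 difference over all genes was 0.19 in COLO320DM and 0.29 in SW480. In edgeR, 3453 of 21125 genes (16.3%) were higher in replicate 1 of COLO320DM and 3549 (16.8%) lower at an adjusted p under 0.05, together 33.1%, and 42.1% had an unadjusted p under 0.05. Without replicate 1 with empty vector 2072 genes were lower. Of the 1364 genes shifted higher in SW480, 1068 were tested there, and 289 (27.1%) rose and 109 (10.2%) fell. Of the 3012 shifted lower, 1972 were tested, and 523 (26.5%) fell and 102 (5.17%) rose. Of the 15908 tested genes that were not shifted in SW480, 18.1% rose and 17.4% fell. Taken from the other side, genes shifted higher in SW480 made up 8.86% of the 3263 risen genes measured in both lines, and genes shifted lower 15.4% of the 3404 fallen. Genes not shifted made up 88% of the risen and 81.4% of the fallen. Differences between the lines were not tested, since the SW480 values chose their own libraries.

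**Figure D5:**
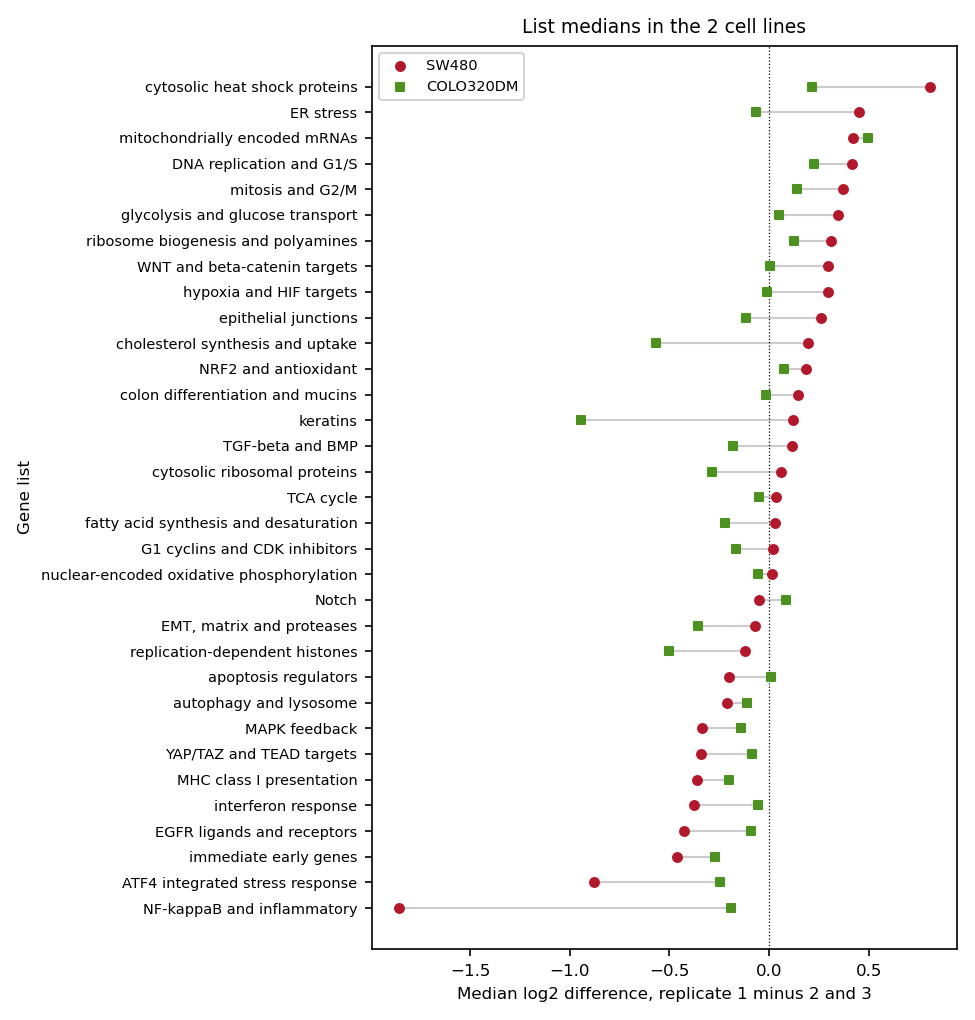
Median log2 difference (replicate 1 minus replicates 2 and 3) of 33 gene lists in SW480 (circles) and COLO320DM (squares), over the members measured in each line. The mitochondrially encoded mRNAs lie close together at 0.42 and 0.50, the NF-κB list lies at −1.86 and −0.19, and cholesterol synthesis lies at 0.19 and −0.57.

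Of the groups described in SW480, the mitochondrially encoded mRNAs rose in all 13 genes in COLO320DM (median 0.50), with MT-ATP6 at 0.84 (SE 0.05, adjusted p = 3.17e-13) in edgeR. Mitochondrial counts took 8.90% and 9.40% of the replicate 1 libraries there and 7.59% to 7.80% of the others. The counts that follow stand beside 16.3% of all genes that rose there and 16.8% that fell. Genes of DNA replication rose in 19 of 30 and fell in 1, and mitotic genes rose in 16 of 30 and fell in 2. Heat shock proteins rose in 9 of 16 and fell in 2: HSPA8 rose by 0.48 (SE 0.05, adjusted p = 9.78e-09) and DNAJA1 by 0.72 (SE 0.05, adjusted p = 1.9e-11) in edgeR. In the ATF4 list 17 of 21 genes fell and 1 rose, with DDIT3 at −0.80 (SE 0.05, adjusted p = 2.52e-12) and TRIB3 at −0.27 (SE 0.05, adjusted p = 0.000313) in edgeR, while SLC7A11, the cystine transporter, rose by 0.41 (SE 0.05, adjusted p = 4.95e-07) in edgeR. Immediate early genes fell in 10 of 17 and none rose, with EGR1 at −1.24 (SE 0.16, adjusted p = 1.37e-06) in edgeR. GDF15 fell by 2.59 on the log2 scale (SE 0.42, adjusted p = 2.48e-05) in edgeR, where its SW480 difference was −2.96.

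Other groups had different values in COLO320DM. In the NF-κB list 15 genes were measured, of which 3 fell (NFKB2, RELB and ICAM1) and 2 rose (NFKB1 and REL), shares near those of all genes there (16.8% and 16.3%), and the median was −0.19. ICAM1 had −1.18 (SE 0.25, adjusted p = 0.00069) and NFKBIA 0.02 (SE 0.08, adjusted p = 0.895) in edgeR. CCL2, CXCL1, CXCL2, CXCL8, CCL20, TNF and CSF2 were under the count filter. ER stress genes fell in 6 of 19 and rose in 1, with HSPA5 at −0.15 (SE 0.04, adjusted p = 0.00877) in edgeR. Cholesterol synthesis genes fell in 22 of 24 and none rose, with HMGCS1 at −0.96 (SE 0.05, adjusted p = 7.51e-14) in edgeR against 0.64 in SW480. Cytosolic ribosomal protein genes fell in 19 of 20 (median −0.29). TNC had −0.54 (SE 0.05, adjusted p = 3.3e-08) and CD44, an adhesion receptor, −1.58 (SE 0.10, adjusted p = 2.44e-12) in edgeR, where their SW480 differences were 1.83 and 0.94.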

How the data were processed

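The 12 libraries were deposited as 1 table of raw counts per gene made by the authors, with 60623 genes identified by Ensembl ID, and all 12 columns were matched to samples by their labels. Gene coordinates (GRCh38) were those given with the deposited counts. Gene types and GC content came from GENCODE 29 by Ensembl ID, which held 58516 of the genes. Gene names came from a reference list by Ensembl ID, and from GENCODE 29 where that list had none. Per the submitters' processing notes, GRCh38 was the build and HISAT2 2.1.0 and limma were among the tools; the counter, its annotation and its strand setting are not given in the sources used here. Without strand, reads of overlapping and antisense genes cannot be told apart.

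Each line was analysed with edgeR 4.0.16 in R 4.3.3 on its 6 libraries, after its expression filter (minimum count 10, minimum total 15), with TMM scaling, plasmid as covariate and robust quasi-likelihood fits, tested on simulated data. Adjusted p-values are Benjamini-Hochberg values over all genes kept, called under 0.05. Replicate 1 against replicates 2 and 3 in SW480 has no test. The COLO320DM comparison, the interaction of plasmid and replicate 1, and replicate 3 against 2 were tested with edgeR's quasi-likelihood test. Alternatives were other size factors, DESeq2 1.42.0, limma 3.58.1 (voom), no filter, 1 fit of all libraries, a replicate block, a log2 threshold of 1, and each library left out. Library totals as scaling, the ER stress element and the shorter κB motif were added after values were seen.

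Deviations from the plasmid group means correlated between same-numbered SW480 libraries of the 2 plasmids (r = 0.844, 0.618 and 0.450 across genes for numbers 1, 2 and 3). With replicate 1 far from the others in both groups, such values follow from the division itself. Replicates 2 and 3 correlated more across numbers (0.647 for empty vector 3 with HKDC1 2, 0.518 for empty vector 2 with HKDC1 3). These values do not test whether number 1 stands apart, and they do not pair 2 with 2 or 3 with 3. Plasmid differences by number and the replicate block therefore rest on the labels for replicates 2 and 3. The members, gene lists and tests were chosen with earlier results of these data known. Genes named are the 15 protein-coding genes of largest difference in each direction at a mean of 5 CPM or more without overlap, up to 5 shifted members per list at 1 CPM or more, list members that name a process, the 10 genes of smallest interaction p in each direction and 5 of smallest p for replicate 3 against 2. Other members were named for their role. A few genes and 1 gene list are not reported here, in the text or the figures. Of 746 list entries, 745 were found in the table.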

Additional observations from a re-analysis of the deposited data

Results flagged for a closer look

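The interaction of plasmid and replicate 1 in SW480 passed edgeR's quasi-likelihood test in 3 genes. Replicate 1 holds 1 library per plasmid, which the test assumes to vary like replicates 2 and 3. The difference in log2 effect was 0.87 for AKAP12, 0.75 for TNFRSF12A and −1.57 for EPPK1. None of the 3 was called by DESeq2 (adjusted p = 0.498 for AKAP12, 0.159 for TNFRSF12A and 0.147 for EPPK1), and EPPK1 had an adjusted p of 0.338 when all 12 libraries were fitted together with edgeR.

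Among genes with the largest SW480 differences, 6 described here had replicate 1 on the opposite side in COLO320DM, and the difference between the lines was not tested. TNC (−0.54), EFNA4-EFNA3 (−0.20), EPPK1 (−0.86), KCNS3 (−0.68) and LPAR3 (−0.18) were lower in COLO320DM replicate 1 and higher in SW480 replicate 1. TNFRSF9 (0.47) was higher in COLO320DM replicate 1 and lower in SW480 replicate 1.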

How the results depend on the processing

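In SW480, genes shifted higher and lower numbered 1377 and 2999 with the replicate block; genes higher numbered 2362 without the count filter and 814 with library totals, and 379 were higher and 1523 lower at a log2 difference of at least 1. Leaving out 1 library gave 1371 to 2131 higher (2131 without replicate 1 with the HKDC1 plasmid) and 3012 to 3788 lower. Of the values of single genes under these settings, 1722 stayed within 1 SD and 254 moved further, none to the other side. EPPK1 had 0.90 without replicate 1 with empty vector and 2.46 without replicate 1 with the HKDC1 plasmid. Of list medians at least 0.1 in size, signs changed 7 times: without the filter for histones (0.045), keratins (−0.081) and endothelium markers (0.28), with library totals for keratins (−0.016) and TGF-beta and BMP (−0.023), and with 1 library left out for colon differentiation (range −0.14 to 0.32) and keratins (−0.22 to 0.32). Medians nearer 0 changed sign 10 times, among them with library totals those of G1 cyclins (−0.12), ribosomal proteins (−0.08), the TCA cycle (−0.11), oxidative phosphorylation (−0.12) and fatty acid synthesis (−0.11). In the interaction the block gave 5 genes higher and 8 lower; lower genes numbered 2 with other size factors and with voom and 0 in the fit of all libraries, DESeq2 called 0 and 0, no filter gave 6 and 7, and library totals gave 0 higher. Leaving out 1 library gave 0 to 233 higher and 5 to 173 lower; without either replicate 1 library this model could not be fitted. For replicate 3 against 2, lower genes numbered 2 with other size factors, 0 with DESeq2, 6 without the filter and 0 in the fit of all libraries; leaving out 1 library gave 2 to 153 higher and 2 to 37 lower. In COLO320DM the block gave 3061 higher and 3131 lower, and leaving out 1 library 2425 to 3766 higher and 2072 to 3813 lower (2072 without replicate 1 with empty vector). There ANXA1 turned to −0.019 with library totals and ranged from −0.050 to 0.055 with 1 library left out, ASPRV1 from −0.34 to 0.22 and LAMP3 from −1.23 to 0.33, the values of changed sign not being called. The block moved no other count by over 1.5 times. The cause of these changes was not tested. The groups hold 2 and 4 libraries, which leaves 2 or 3 residual degrees of freedom in the fits reported first and fewer with the block or with a library left out.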

Other observations

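Gene types and chromosomes differed among the shifted genes, as descriptions without a test. Long noncoding genes made up 19.9% of all genes kept, 20% of those shifted higher and 28.6% of those shifted lower. Protein-coding genes shifted lower had a median of 2.82 CPM and a GC content of 53.4%, against 23.1 CPM and 49.2% over all protein-coding genes and 13.4 CPM and 47.6% in those shifted higher. Among protein-coding genes of at least 5 CPM, the median log2 difference in SW480 was −0.11 on chromosome 7 (563 genes) and 0.19 on chromosome 10 (425 genes). The same medians in COLO320DM were 0.04 and 0.05.

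Of 7 neuroendocrine markers, 4 were measured in SW480, and 3 of these were shifted lower in replicate 1, against 13.6% of all genes. In COLO320DM 4 were measured, and all 4 fell in edgeR's quasi-likelihood test, against 16.8% of all genes, with a median log2 difference of −1.36.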
